A study of Mus musculus with 4 samples.

Results

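The growth factor gene Gdf10, the 3 TGF-beta ligand genes Tgfb1, Tgfb2 and Tgfb3, the receptor genes Tgfbr1 and Tgfbr2, the co-receptor genes Tgfbr3 and Eng, and the signalling genes Smad3 and Smad7 were followed on 4 mouse expression arrays. The 10 genes were chosen by name, and all of their probe sets were taken. They had 18 of the 22690 probe sets, and they are 10 of the 12394 genes named on the arrays. The study measured mammary tissue of female, nulliparous mice on the C57BL/6 background, kept on standard rodent chow. The 4 groups were mammary tumor of Sca-1 KO mice, mammary tumor of wild type mice, mammary gland of Sca-1 KO mice at 6 weeks and mammary gland of wild type mice at 6 weeks, all called knockout or wild type below. Tumors followed an injection under the skin of 15 mg of MP, a depot progestin, and then gavage with 1 mg of the carcinogen DMBA, a polycyclic hydrocarbon, in each of 4 weeks. The labels attach that treatment protocol to every sample, but only the tumor groups' own labels name MP-DMBA. No age is given for the tumor-bearing mice. RNA of 5 mice was pooled per group and put on 1 array, so there are no replicates, no test was possible, and every difference below is between 2 arrays. Sca-1, stem cell antigen-1, is a cell surface protein by which stem and progenitor cells are often sorted. Its gene had no named probe set in the annotation, and the loss of Sca-1 was therefore not checked on these arrays.

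TGF-beta ligands are secreted in a latent complex and, once released, bind the type II receptor, which brings in and phosphorylates the type I receptor. That kinase phosphorylates Smad2 and Smad3, which enter the nucleus with Smad4, while Smad7 acts as a feedback inhibitor. In the mammary gland the pathway is known for restraining epithelial growth and ductal branching, and in carcinomas for acting on stroma, invasion and immune cells. Gdf10, also called Bmp3b, is a secreted member of the same superfamily.

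Levels are given as signal, the linear intensity of a probe set on its array, and are compared only within a probe set. Differences are on the scale log2(signal + 27.3), which understates those of dim genes. The floor was the median of all values, a signal of 168.1. A gene was compared where its brightest probe set reached the floor on at least 1 array. This held for 8283 genes and for 9 of the 10 genes followed here, Smad3 being the exception. "Higher" and "lower", where counted, mean at least 2-fold (1 on the log2 scale). To gauge noise, the differences of 2 probe sets of 1 gene were set against each other. The spread between probe sets was taken as the scaled median absolute deviation of their gap, divided by the square root of 2. It was 0.18 for the genotype difference in tumor and 0.22 in gland. It was 0.47 for tumor against gland in knockout and 0.51 in wild type. It says nothing of how mice or pools vary.

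The arrays differed in ways that bear on all of these values. Median signals were 153.35 and 150.8 on the knockout and wild-type tumor arrays, and 199.3 and 166.5 on the knockout and wild-type gland arrays. Beta-actin control probe sets, which report on RNA integrity, had a 3' over 5' ratio of 1.29 and 1.23 in the knockout and wild-type tumor, and 1.61 and 2.35 in the knockout and wild-type gland. Marker lists were read in the whole tissues. The summed signal of 6 luminal epithelial markers was 42181 and 38097 in the knockout and wild-type tumor, against 19955 and 23430 in the knockout and wild-type gland. White adipocyte markers (5 of 7 named) summed to 3769 and 5062 in those tumors, against 35377 and 37182 in the glands. Skeletal muscle markers (5 of 5) summed to 597.9 and 187.9 in the tumors, against 32319 and 33045 in the glands. Keratinising epithelium markers (6 of 6) summed to 336.5 and 4693 in the tumors, against 277.3 and 353.4 in the glands. None of the markers was at 0 on any array. Whether the mixture of cells sets any level below was not tested, and in whole tissue fewer cells of a type and less RNA per cell cannot be told apart.

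**Figure D1:**
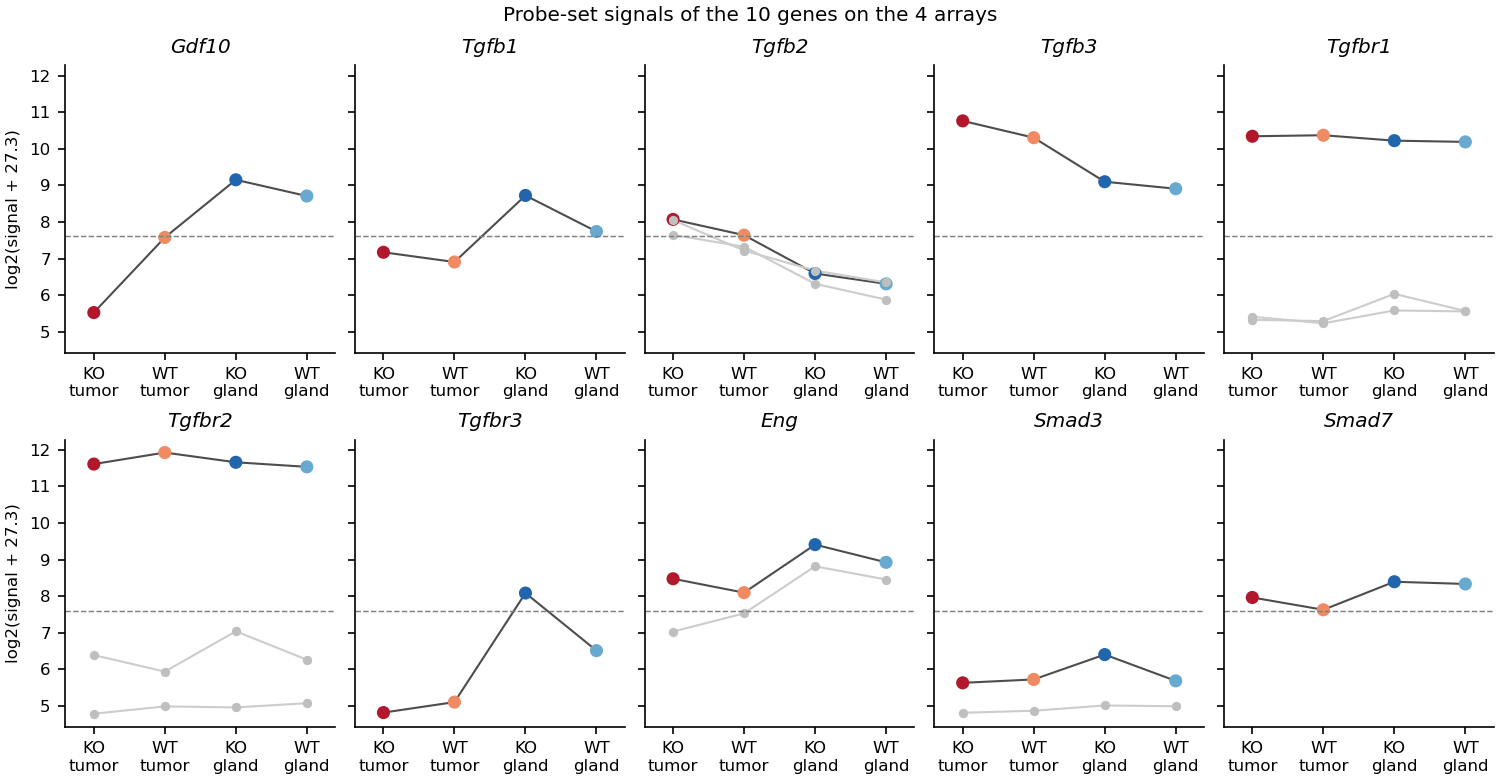
Each panel plots log2(signal + 27.3) of 1 gene on the 4 arrays (KO, Sca-1 knockout; WT, wild type); coloured points are the brightest probe set, grey points the gene's other probe sets, and the dashed line is the floor. Tgfb2 and Tgfb3 are highest in the tumors, Gdf10 and Tgfbr3 are highest in the knockout gland, and the brightest probe sets of Tgfbr1 and Tgfbr2 are nearly level.

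Among the ligands, Tgfb2 and Tgfb3 were higher in the tumors, while Gdf10 was lower in the tumors and lowest in the knockout tumor. Gdf10 is represented by 1 probe set. Its signal was 18.8 in the knockout tumor, 163.9 in the wild-type tumor, 542.5 in the knockout gland and 391.7 in the wild-type gland. Both gland values lay above the floor and both tumor values below it. Within each array, the Gdf10 probe set stood at percentile 25.6 in the knockout tumor, 51.3 in the wild-type tumor, 71.6 in the knockout gland and 66.5 in the wild-type gland. Tumor against gland, Gdf10 was 12.4-fold lower in knockout (log2 difference -3.63) and 2.19-fold lower in wild type (-1.13). Its knockout-tumor signal lay close to the lower quartile of that array, 17.9, so the size of the fold depends on the offset.

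Tgfb2, a ligand needed in the development of many organs, had 3 probe sets. By the brightest of them, signals were 241.8 and 172.4 in the knockout and wild-type tumor, against 69.3 and 52.1 in the knockout and wild-type gland. The second gave 238.4 and 122.0 in the tumors and 74.8 and 54.3 in the glands, and the third 173.6 and 133.1 in the tumors and 52.2 and 31.6 in the glands. On each of the 3 probe sets both tumors lay above both glands. Tumor against gland, the log2 differences were 1.48, 1.38 and 1.34 in knockout and 1.33, 0.87 and 1.45 in wild type.

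Tgfb3, a ligand known in the mammary gland for its induction at weaning, was above the floor on all 4 arrays, with signals of 1712.1 and 1237.9 in the knockout and wild-type tumor, against 522.1 and 453.8 in the knockout and wild-type gland. It was 3.17-fold higher in the tumor than in the gland in knockout and 2.63-fold higher in wild type. Both tumors lay above both glands.

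Tgfb1, the ligand made by many immune and stromal cells, differed in the other direction. Its signals were 117.1 and 92.8 in the knockout and wild-type tumor, against 396.1 and 186.7 in the knockout and wild-type gland. The knockout gland stood apart from the other arrays, and both tumors were below the floor. Tumor against gland, Tgfb1 was 2.93-fold lower in knockout and 1.78-fold lower in wild type (log2 differences -1.55 and -0.83).

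The promoters of Gdf10 and Tgfb2 are shown because these ligands differed in opposite directions between tumor and gland. Each run is the 250 bases before a transcript start in RefSeq (GRCm38.p6), 5′ to 3′ on the gene's strand. The Gdf10 window is chr14:33923337-33923586 on the plus strand and the Tgfb2 window is chr1:186705990-186706239 on the minus strand. The Tgfb2 gene is annotated up to 186709697, so its window lies inside the gene, before a start that is not the outermost. Capitals mark matches on either strand. The motifs searched were the Smad half-site CAGAC and the GC box, which was spelled GGGCGG. The TATA box was spelled TATAAA, and the last motif was the E-box, here CACGTG.
Gdf10: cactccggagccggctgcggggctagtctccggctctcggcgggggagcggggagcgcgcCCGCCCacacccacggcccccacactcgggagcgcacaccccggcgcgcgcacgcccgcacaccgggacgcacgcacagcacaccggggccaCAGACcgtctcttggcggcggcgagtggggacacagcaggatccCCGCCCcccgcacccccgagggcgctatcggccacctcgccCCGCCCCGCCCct
Tgfb2: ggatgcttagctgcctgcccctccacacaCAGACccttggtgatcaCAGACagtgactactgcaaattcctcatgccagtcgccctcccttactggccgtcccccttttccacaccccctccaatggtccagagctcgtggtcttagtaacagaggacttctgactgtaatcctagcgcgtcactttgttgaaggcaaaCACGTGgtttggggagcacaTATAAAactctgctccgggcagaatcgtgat
The Gdf10 window holds 35 CG dinucleotides, 4 matches to GGGCGG and 1 to CAGAC, with none to TATAAA or CACGTG. The Tgfb2 window holds 8 CG dinucleotides, 2 matches to CAGAC, 1 to TATAAA and 1 to CACGTG, with none to GGGCGG. No match to one motif overlapped a match to a different motif. The Gdf10 matches to GGGCGG at 13 and 8 bases before the start overlap each other and are marked as 1 run. Among 32851 promoter windows of the same length, 42.2% held CAGAC, 32.7% GGGCGG, 12.4% TATAAA and 6.02% CACGTG, and the median number of CG dinucleotides was 6. A match describes letters only, and whether any of these motifs bears on the levels was not tested.

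Among the receptors, the 2 signalling receptors were nearly level across the 4 arrays by their bright probe sets, and of the co-receptors Tgfbr3 was lower in the tumors while Eng was short of 2-fold. Tgfbr2, the type II receptor that binds ligand first, had signals of 3104.3 and 3867.4 in the knockout and wild-type tumor, against 3211.8 and 2944.3 in the knockout and wild-type gland. Its differences ranged from -0.31 to 0.39 over the 4 comparisons, within the 2-fold threshold. Tumor against gland in knockout was -0.05, and 0.28 with a common median of the arrays. Its other probe sets, with highest signals of 104.6 and 6.5, were below the floor on every array.

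Tgfbr1, the type I receptor kinase also called Alk5, had signals of 1272.1 and 1297.9 in the knockout and wild-type tumor, against 1168.6 and 1140.7 in the knockout and wild-type gland. Its differences ranged from -0.03 to 0.18. The other probe sets of Tgfbr1 were also below the floor on every array, with highest signals of 38.4 and 20.7.

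Tgfbr3, also called betaglycan, presents ligand to the type II receptor and is the co-receptor on which Tgfb2 depends most. Its single probe set had signals of 1.0 and 7.2 in the knockout and wild-type tumor, against 244.9 and 64.2 in the knockout and wild-type gland. Only in the knockout gland did it reach the floor. Tumor against gland, it was 9.62-fold lower in knockout and 2.65-fold lower in wild type. Both tumor values lay under the lower quartiles of their arrays (17.9 and 18.5), so these folds depend on the offset.

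Eng, endoglin, is a co-receptor best known from endothelial cells. Its brighter probe set had signals of 329.6 and 246.9 in the knockout and wild-type tumor, against 653.8 and 459.6 in the knockout and wild-type gland. The other one had 104.0 and 157.9 in the tumors and 424.4 and 324.4 in the glands. Both probe sets placed both tumors below both glands, but they ordered the tumors differently. Tumor against gland, the brighter probe set gave log2 differences of -0.93 in knockout and -0.83 in wild type, short of 2-fold, and the dimmer one gave -1.78 and -0.93.

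Of the Smad genes, Smad7, the inhibitory Smad that is itself induced by TGF-beta, had signals of 223.0 and 171.0 in the knockout and wild-type tumor, against 309.9 and 296.1 in the knockout and wild-type gland. It was above the floor on all 4 arrays, and both tumors lay below both glands, by log2 differences of -0.43 in knockout and -0.71 in wild type. Smad3, the receptor-activated Smad that carries much of the transcriptional response, was dim. Its brighter probe set had signals of 22.4 and 25.7 in the knockout and wild-type tumor, against 57.6 and 24.3 in the knockout and wild-type gland, and the highest signal of the other was 5.1. No difference of Smad3 is read from these values.

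Counted together, tumor against gland, 2 of the 9 compared genes were higher (Tgfb2 and Tgfb3) and 3 were lower (Gdf10, Tgfbr3 and Tgfb1) in knockout. Over all 8283 genes, 12.4% were higher and 17.9% were lower in that comparison, 30.2% either way. In wild type 2 were higher (Tgfb2 and Tgfb3) and 2 were lower (Gdf10 and Tgfbr3), where 12.9% of all genes were higher and 16.6% lower, 29.4% either way. Gdf10, Tgfbr3 and Tgfb1 passed the floor only through the glands and Tgfb2 only through the tumors, so the filter favoured the side of 4 of the 5 calls in knockout and of 3 of the 4 in wild type, and nothing is read from these counts against the shares of all genes. With the median of all values as offset, 3 genes remained past 2-fold in knockout (Gdf10, Tgfb3 and Tgfbr3) and 1 in wild type (Tgfb3). Tgfb2 was then 0.79 in knockout and 0.63 in wild type, and in wild type Gdf10 was -0.75 and Tgfbr3 -0.41. With the floor on the mean over arrays, which Tgfb2 and Tgfbr3 did not reach, 3 were past it in knockout and 2 in wild type. When each array was set to the same median, 1696 of all genes were higher and 1035 lower in knockout, in place of 1023 and 1479. The calls of the 5 genes in knockout and of the 4 in wild type were the same 5 and 4 under that scaling. With cyclic loess, Gdf10 in wild type was -0.97, short of 2-fold. With an offset of 1, Tgfb1 in wild type just reached 2-fold lower, and with the mean of its probe sets Eng was lower in knockout at -1.36.

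**Figure D2:**
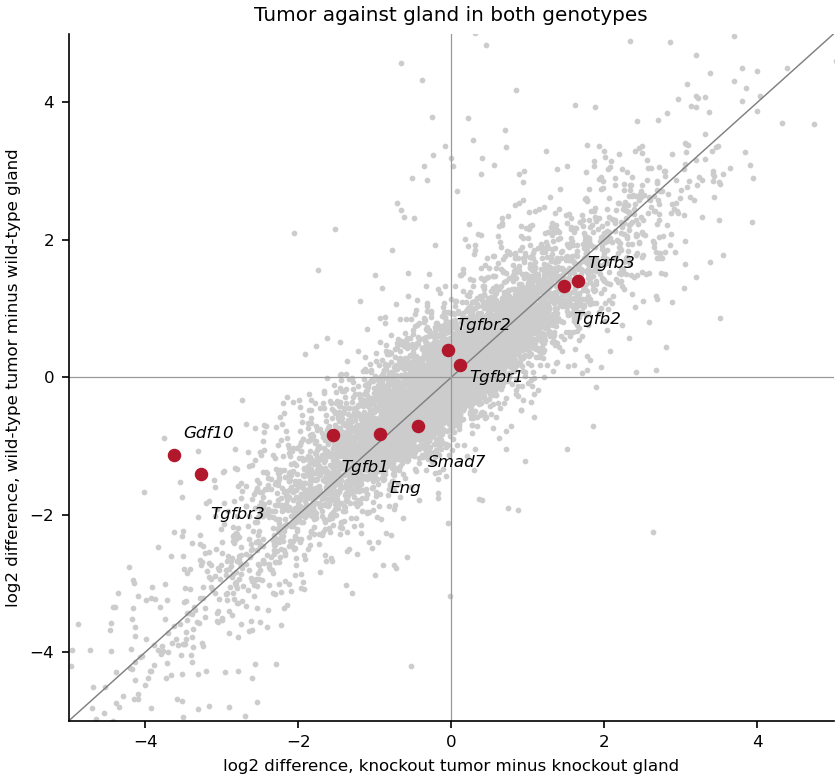
The log2 difference of tumor minus gland in knockout (horizontal axis) is plotted against the same in wild type (vertical axis); grey points are all compared genes within 5 units of 0, red points the 9 genes named, and the diagonal marks equal differences. Gdf10 (-3.63 and -1.13) and Tgfbr3 (-3.27 and -1.41) lie to the left of the diagonal, and Tgfb2 and Tgfb3 lie near it at the upper right.

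The comparison of genotypes in the tumors asks what differed in tumors that arose without Sca-1. Gdf10 was past 2-fold, and no gene but it and Tgfbr3 was under any alternative tried. The Tgfbr3 signals of 1.0 and 7.2 both lay under the lower quartiles of their tumor arrays, so its difference here is between background readings and is not read as a change. Gdf10 was 4.15-fold lower in the knockout tumor (log2 difference -2.05), where 1.94% of all 8283 genes were lower and 2.12% higher. It ranked 42 from the lowest of those genes. Both tumor signals, 18.8 and 163.9, were below the floor, the second just under it. The difference was -3.06 with an offset of 1 and -0.83, short of 2-fold, with the median of all values as offset.

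The other 8 genes lay within 2-fold between the tumors at the offset of 27.3. Tgfb3 differed by 0.46, Tgfb2 by 0.43, Eng by 0.38, Smad7 by 0.34 and Tgfb1 by 0.27, all higher in knockout in sign. With the mean of all its probe sets, Eng differed by -0.06. Tgfbr2 differed by -0.31, Tgfbr3 by -0.29 and Tgfbr1 by -0.03. The 3 TGF-beta ligand genes were on the positive side under all alternatives tried, while Gdf10 was on the negative side. The 3 probe sets of Tgfb2 gave 0.43, 0.83 and 0.32.

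The comparison of genotypes in the glands asks what differed in tissue without a tumor. Tgfbr3 was past 2-fold, 2.97-fold higher in the knockout gland (log2 difference 1.57), where 1.11% of all genes were higher and 0.254% lower. It ranked 13 from the highest of the 8283 genes. Since no other array reached the floor, the filter favoured this direction. With the median of all values as offset it differed by 0.83, short of 2-fold. Tgfb1 was next, at 0.98, just short of 2-fold and ranked 96 from the highest, and with an offset of 1 it was past it at 1.08.

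Of the remaining genes, Eng differed by 0.48, Gdf10 by 0.44, Tgfb2 by 0.28, Tgfb3 by 0.19, Tgfbr2 by 0.12, Smad7 by 0.06 and Tgfbr1 by 0.03 in the gland. All 9 differences were positive, against a median of 0.01 over all genes. At equal array medians the median over all genes was -0.21, and Tgfb3, Tgfbr2, Tgfbr1 and Smad7 were at -0.03, -0.10, -0.19 and -0.17. Smad7 was also negative with quantile normalization (-0.10) and cyclic loess (-0.09). The number of all genes higher and lower in the knockout gland was then 44 and 39, in place of 92 and 21, and it was 66 and 34 with quantile normalization and 52 and 30 with cyclic loess. The 3' to 5' ratio of beta-actin was lower on the knockout gland array (1.61) than on the wild-type gland array (2.35), and its part in these differences was not tested. Brown adipocyte markers (4 of 4) summed to 2885 in the knockout gland and 5466 in the wild-type gland, all 4 negative in sign, and their part was not tested either.

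**Figure D3:**
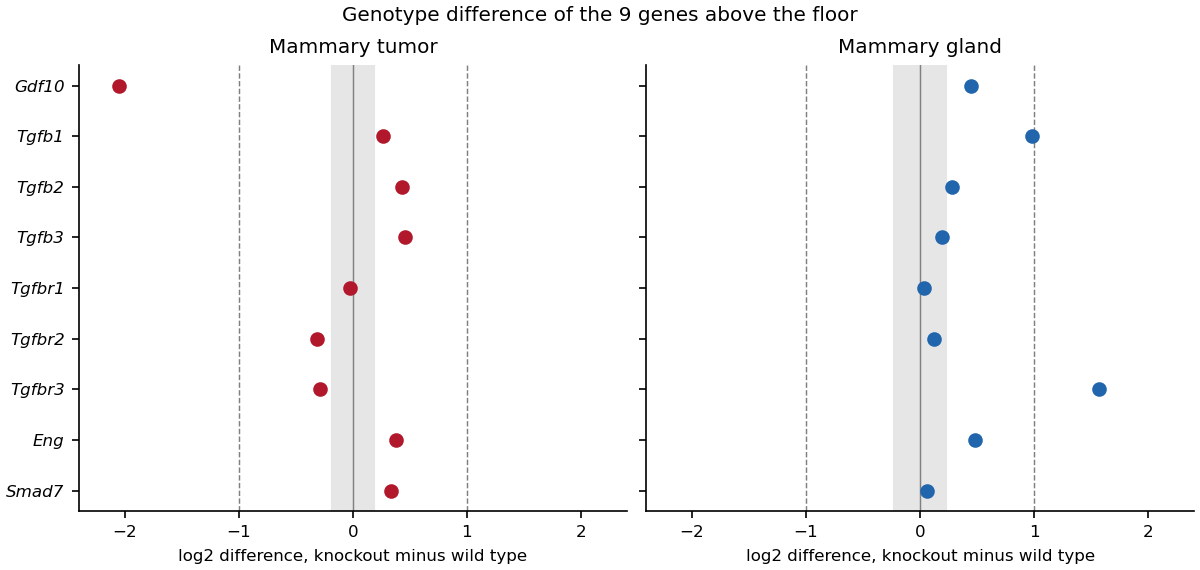
The log2 difference of knockout minus wild type is plotted for the 9 genes in tumor (left) and gland (right); the grey band is the spread between probe sets of 1 gene (0.18 and 0.22) and the dashed lines mark 2-fold. Gdf10 lies past the line in tumor at -2.05 and Tgfbr3 in gland at 1.57.

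The genotype difference of Gdf10 was of opposite sign in the 2 tissues, -2.05 in tumor and 0.44 in gland. The difference of these differences was -2.50, past the 4-fold threshold used for it, which 0.676% of all genes passed on the lower side and 1.05% either way. With the median of all values as offset it was -1.17, short of 4-fold. Of all genes 31 were past it on the higher side and 56 on the lower, and 38 and 44 at equal array medians. Gdf10 ranked 36 from the lowest by this measure. Tgfbr3, at -1.86, rests on tumor signals near background and on a gene that reached the floor in the knockout gland alone, so its size is not read. With 1 array per group neither could be tested. The other 7 genes lay between -0.72 (Tgfb1) and 0.28 (Smad7).

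Likeness of profile was measured as the Euclidean distance between log2 values over the 4 arrays, each gene centred on its own mean. The genes closest to Gdf10 were Srpx (distance 0.35), the transcription factor Zeb1 (0.57), the mitochondrial gene ND5 (0.59), the collagen gene Col1a1 (0.66) and Creb3l1 (0.71). Srpx had signals of 41.4 and 182.2 in the knockout and wild-type tumor, against 772.9 and 575.9 in the knockout and wild-type gland. With 4 arrays these distances only describe, and all 5 genes shared the order of tumors below glands and the knockout tumor lowest.

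Fibroblast markers had part of the same profile. Their summed signal (8 of 8 named) was 11970 in the knockout tumor, 20425 in the wild-type tumor, 36045 in the knockout gland and 31629 in the wild-type gland. Of the 8, 2 were lower in the knockout than in the wild-type tumor and none higher, with 7 negative in sign and a median of -0.69. Of all genes, 1.94% were lower and 2.12% higher between those tumors. Pdgfra, a receptor that marks fibroblasts, had signals of 282.3 and 426.8 in those tumors, and Col1a1 had 349.2 and 817.1. Thy1 was the marker of positive sign, at 0.30. Col1a1 is 1 of the 2 lower markers and also 1 of the 5 genes closest to Gdf10, so it enters both readings. No fibroblast marker was at 0, and the part of these cells in the level of Gdf10 was not tested. Keratinising epithelium markers also separated the tumors, with 5 of 5 compared lower in knockout, beside that 1.94% of all genes. All of these but Krt10 reached the floor only in the wild-type tumor. The filter therefore favoured this direction, and nothing is read from the count against that share. The median of the 5 markers was -3.54 between the tumors and -0.15 between the glands. Their part was not tested.

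White adipocyte markers were also lower in the tumors than in the glands, all 5 of them past 2-fold in each genotype. Of all genes, 17.9% were lower in tumor in knockout and 16.6% in wild type. Between the knockout and the wild-type tumor, 0 of these 5 markers were past 2-fold, beside 4.07% of all genes, and the marker median was -0.21.

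The genes closest to Tgfbr3 were Fcrla (0.18), the kinase Blk (0.29), Ngp (0.36), the chemokine receptor Cxcr5 (0.37) and Cd22 (0.39). Like Tgfbr3, Fcrla, Blk, Ngp and Cxcr5 reached the floor only in the knockout gland, with tumor signals of 4.5 to 19.5. The filter therefore favoured this shared profile, and the likeness only describes. Cd22 is itself on the list of B cell markers. That list (4 of 5 named) had a summed signal of 142.3 in the knockout tumor, 159.5 in the wild-type tumor, 3273 in the knockout gland and 1246 in the wild-type gland. All 4 markers, with a median of 1.34, were higher in the knockout gland, beside 1.11% of all genes. None was at 0, and the part of B cells in the level of Tgfbr3 was not tested. T cell markers (4 of 5 named) summed to 1873 in the knockout gland and 1094 in the wild-type gland. Of these, 4 of 4 were positive and 1, Cd8a, was higher by 2-fold, beside 1.11% of all genes. Cd8a and Cd3e reached the floor only in the knockout gland, so the filter favoured this direction. Macrophage markers were also positive, 5 of 5, with a median of 0.22 and 0 past 2-fold. Tgfb1 was higher on the same array in sign, and the part of any of these cells in its level was not tested.

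Eng stood beside endothelial markers. Their summed signal (10 of 10 named) was 2240 and 3086 in the knockout and wild-type tumor, against 7057 and 6392 in the knockout and wild-type gland. Tumor against gland, 9 of the 10 were lower in knockout and 5 in wild type, beside 17.9% and 16.6% of all genes. The marker medians were -1.60 and -0.98, while Eng differed by -0.93 and -0.83. Between the tumors all 10 endothelial markers were negative in sign, with a median of -0.28, while the brighter probe set of Eng was 0.38 and the dimmer one -0.50. None of the markers was at 0.

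**Figure D4:**
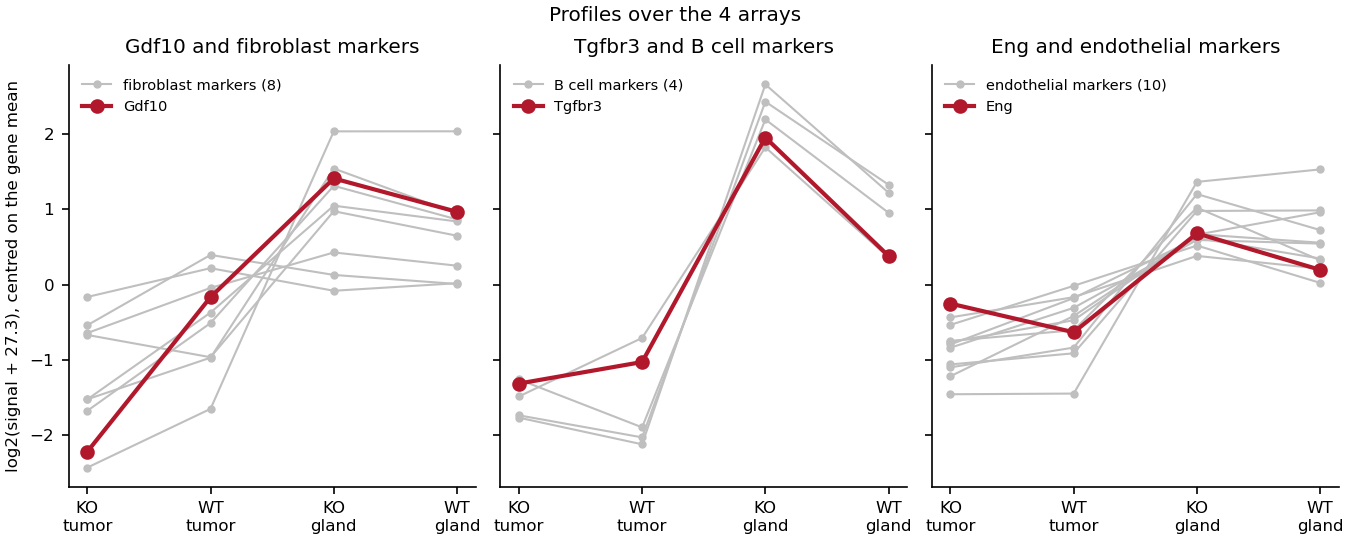
Values of log2(signal + 27.3), each gene centred on its mean over the 4 arrays, are plotted for Gdf10 with 8 fibroblast markers, Tgfbr3 with 4 B cell markers and Eng with 10 endothelial markers; the red line is the gene named and grey lines are markers. Gdf10 is low in the knockout tumor, where most fibroblast markers are also at their lowest, and Tgfbr3 peaks in the knockout gland as the B cell markers do.

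The rest of the pathway was read from 4 lists, of genes of ligand latency and activation, receptor partners and signal transducers, negative regulators, and target genes. Their counts stand beside the shares of all genes past 2-fold, which were 30.2% in knockout and 29.4% in wild type for tumor against gland, 4.07% between the tumors and 1.36% between the glands. Of ligand latency and activation genes, 11 of 14 were named and 10 compared, and tumor against gland 1 of 10 in knockout and 3 of 10 in wild type were past 2-fold, the second near the share of all genes. Ltbp4, a latent TGF-beta binding protein, was lower in tumor than in gland in both genotypes, with signals of 135.2 and 133.3 in the knockout and wild-type tumor, against 804.7 and 421.3 in the knockout and wild-type gland. In knockout it was 5.12-fold lower and the other 9 lay within 2-fold, though 4 of the 10 were past it at equal array medians. In wild type, besides Ltbp4 at 2.79-fold lower, Mmp14, a membrane protease, was 2.81-fold higher in tumor. Emilin1, a matrix glycoprotein that limits processing of the ligand precursor, was 2.80-fold higher there. Ltbp4 reached the floor only in the glands and Emilin1 only in the wild-type tumor, so the filter favoured the direction of both. Between the tumors, Bmp1, a procollagen protease that also cleaves latent binding proteins, was 2.15-fold lower in knockout and the other 9 lay within 2-fold, while none was past it with the median of all values as offset or with the mean of all probe sets. In the glands none of the 10 was past 2-fold by its brightest probe set, though 1 was with an offset of 1. The other Mmp14 probe set, also above the floor, was 1.38 higher in the knockout gland, where the brightest differed by 0.36. The list medians were 0.14 in knockout and 0.54 in wild type for tumor against gland, 0.00 between the tumors and 0.24 between the glands, where those of all genes were -0.04, -0.03, 0.01 and 0.01. Between the tumors the list median was 0.31 with the mean of all probe sets.

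Of receptor partners and transducers, 12 of 14 were named and 10 compared, and tumor against gland 0 of 10 in knockout and 1 of 10 in wild type were past 2-fold, beside 30.2% and 29.4% of all genes. Bambi, a decoy receptor, was past it in wild type, 2.18-fold higher in wild-type tumor than in wild-type gland (signals 415.2 and 175.9). The other 9 lay within 2-fold in all 4 comparisons. Tumor against gland in knockout, 1 gene was past it with cyclic loess and 1 with the mean of all probe sets. In wild type the count was 2 with that mean and 0 with the median of all values as offset. Smad4, the shared partner Smad, had signals of 1830.8 and 1861.0 in the knockout and wild-type tumor, against 1445.1 and 1408.0 in the knockout and wild-type gland. Smad2 had 674.9 and 668.7 in the tumors, against 580.0 and 466.8 in the glands. Between the tumors the median was -0.15, with 2 of 10 on the positive side.

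Negative regulators (12 of 14 named, all 12 compared) had 4 members higher in tumor and none lower in each genotype, and they were the same 4. Of all genes, 12.4% were higher and 17.9% lower in knockout, and 12.9% and 16.6% in wild type. Fst, follistatin, which binds activins, was 7.69-fold higher in knockout tumor than gland and 5.79-fold higher in wild type. Pmepa1, a TGF-beta-induced inhibitor of Smad activation, was 2.48-fold higher in knockout and 3.37-fold in wild type, with signals of 3007.8 and 2924.8 in the knockout and wild-type tumor, against 1197.7 and 848.3 in the knockout and wild-type gland. Tgif1, a transcriptional corepressor, was 2.18-fold and 2.37-fold higher. Bgn, a proteoglycan that binds ligand, was 2.07-fold and 4.66-fold higher. Fst reached the floor only in the tumors, so the filter favoured its direction. Tumor against gland in knockout, the count past 2-fold was 3 with quantile normalization. It was 3 in each genotype with the median of all values as offset, and 5 in wild type with an offset of 1. In both genotype comparisons 0 of the 12 were past 2-fold.

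Target genes (24 of 26 named, 23 compared) went both ways. Tumor against gland, 8 were higher and 4 lower in knockout, and 6 were higher and 3 lower in wild type. These are 12 and 9 of 23, beside 30.2% and 29.4% of all genes either way. Ccn2, a matricellular protein and classical TGF-beta target, had signals of 6261.5 and 6250.0 in the knockout and wild-type tumor, against 1103.2 and 931.8 in the knockout and wild-type gland. The cell cycle inhibitor Cdkn1a was 3.24-fold higher in tumor in knockout and 2.85-fold in wild type. The protease inhibitor Timp1 was 2.38-fold higher in knockout and 3.10-fold in wild type. Col1a1 was 7.93-fold lower in tumor in knockout and 2.59-fold in wild type, and Angptl4 was 5.91-fold and 1.66-fold lower. Fibronectin, Fn1, was 2.10-fold lower in knockout and 5.24-fold in wild type.

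Between the tumors, 3 target genes were higher in knockout and 2 lower, 5 of 23 beside 4.07% of all genes. The count was 3 with the median of all values as offset and 3 with the mean of all probe sets. The genes past it by that mean include Ccn1, which is not among the 5. Its probe sets differed by 0.78 and 1.71, both higher in the knockout tumor. Fn1 was 3.02-fold higher, with signals of 2738.1 and 888.7 in the knockout and wild-type tumor, and the collagen crosslinking enzyme Lox was 2.14-fold higher. Angptl4 was 3.63-fold lower, with 548.4 and 2064.7, and Col1a1 2.24-fold lower. The other Fn1 probe set, below the floor, differed by 0.33, the other Lox probe sets by 0.33 and 0.73 and the other Col1a1 probe set by -0.81, and by the mean of their probe sets all 3 fell short of 2-fold. Ccn2 differed by 0.00 and Pmepa1 by 0.04. In the glands none of the 23 was past 2-fold by its brightest probe set, though 1 was at equal array medians. Other probe sets above the floor were past 2-fold higher in knockout for Cdkn1a (1.35), Col1a1 (1.08) and Timp3 (1.25 and 1.05). The brightest of these genes differed by 0.26, 0.45 and 0.17, and a further Timp3 probe set by 0.79. The median of the 23 was 0.18, where that of all genes was 0.01. Of all genes, 1.36% were past 2-fold either way.

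**Figure D5:**
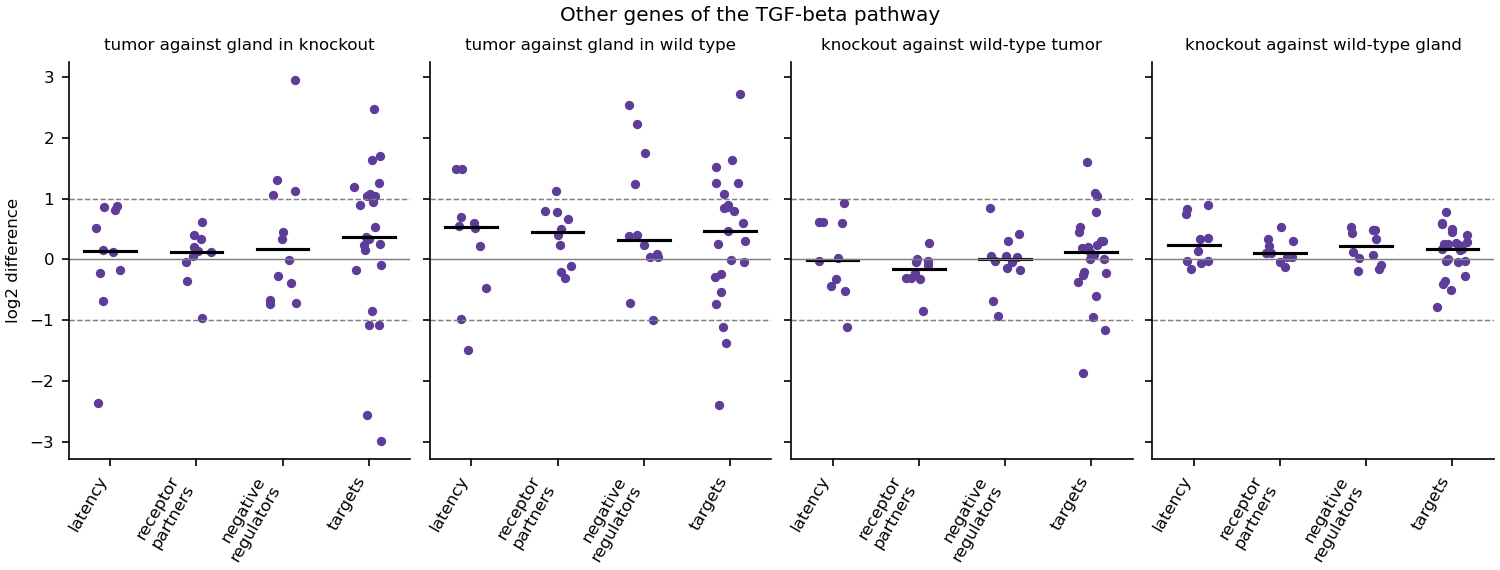
Each point is the log2 difference of 1 compared gene of the 4 pathway lists (10, 10, 12 and 23 genes, left to right in each panel) in the 4 comparisons; black bars are list medians and dashed lines mark 2-fold. Most points past 2-fold belong to tumor against gland, among negative regulators and targets, and none is past it in the gland.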

How the data were processed

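Expression was measured in 4 pooled RNA samples, 1 Affymetrix array each. Per the labels' protocols, equal amounts of RNA of 5 mice per group were pooled and labelled with biotin. The file the authors deposited holds linear intensity, 1 signal for each probe set. Which software made it is not stated in the labels or the file. The trimmed mean of each array, leaving out 2% of probe sets at each end, came to 500.1 or 500.2, so all arrays share 1 scale. No detection calls were used, and 1 array per group limits all precision.

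Probe sets took their names from the platform annotation, 20364 of them updated by gene identifier. Of all probe sets 20393 had 1 symbol, 691 had several and were left out, and 1606 were unlisted and are unnamed here. The probe set brightest on average stood for its gene. The offset of 27.3 is the lower quartile of all values. No p-value is given. Alternatives covered scaling (limma 3.58.1 for cyclic loess), offset, probe set and floor. The genes followed and the lists were chosen with earlier results of these data known. Genes named from a list are up to 4 per comparison with the largest differences past 2-fold. Smad2 and Smad4, and Ccn2 and Pmepa1 between the tumors, were given after their values were seen.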

Additional observations from a re-analysis of the deposited data

Results flagged for a closer look

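With 1 array per group, 5 results stood out because a difference had opposite signs in the 2 tissues or the 2 genotypes. None of these contrasts was tested. For Gdf10 the genotype difference was -2.05 in tumor and 0.44 in gland on the log2 scale, a difference of -2.50. For Tgfbr3 it was -0.29 in tumor and 1.57 in gland, a difference of -1.86, where both tumor signals, 1.0 and 7.2, lay under the lower quartiles of their arrays. For Tgfbr2 it was -0.31 in tumor and 0.12 in gland, and tumor against gland was -0.05 in knockout and 0.39 in wild type, a difference of -0.44. The values of 0.12 and -0.05 lie inside the spreads between probe sets, 0.22 and 0.47, and at equal array medians the signs no longer differed, with -0.34 in tumor and -0.10 in gland, and 0.28 in knockout and 0.51 in wild type. For Tgfbr1 the genotype difference was -0.03 in tumor and 0.03 in gland, a difference of -0.06, which is under the spread of 0.32 between probe sets of 1 gene for this measure.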

How the results depend on the processing

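No paired analysis was possible because each group is 1 array. Of 45 recomputed counts of genes past the threshold, 34 stayed within 1.5 times the count given, and no gene past it changed sign. With an offset of 1, the count was 2 in place of 1 in the gland (Tgfb1 added), in the tumor (Tgfbr3 added) and for the difference of differences (Tgfbr3 added), where the Tgfbr3 tumor signals were under the lower quartiles of their arrays. With the median of all values as offset, it was 0 in the gland, 0 in the tumor, 0 for the difference of differences, 3 in place of 5 for tumor against gland in knockout and 1 in place of 4 in wild type. With the floor set on the mean over arrays, which left 7 of the genes, it was 0 in the gland, 3 in knockout and 2 in wild type. Of 390 recomputed differences of single genes, 36 moved by more than the spread between probe sets. Over all genes, 113 past 2-fold in the gland became 36 to 221 under the alternatives, 337 in the tumor 139 to 503, 2502 in knockout 1570 to 3446, 2439 in wild type 1484 to 3173, and 87 for the difference of differences 30 to 159, lowest with the median as offset. A common median moved the median difference of all genes to 0.31 in knockout and 0.10 in wild type for tumor against gland, and to 0.21 for the difference of differences. It turned the gland medians of receptor partners and of targets to -0.12 and -0.05. The cause of these shifts was not tested. Signals near background limit Gdf10, Tgfbr3 and Smad3 most.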

Other observations

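Several pathway genes had probe sets that disagreed, and these genes were chosen after their values were seen. For Tsc22d1, a TGF-beta-induced transcription factor, 1 probe set had signals of 735.8 in the knockout tumor and 4638.4 in the wild-type tumor, a log2 difference of -2.61, while the 3 brighter ones differed by -0.22, -0.46 and -0.38. For Timp3, a protease inhibitor held in the matrix, the brightest probe set was 1.26 higher on the log2 scale in wild-type tumor than in wild-type gland. The others were 1.46, 3.12 and 4.02 higher. All 4 Timp3 probe sets were lower in the knockout than in the wild-type tumor, by -0.94, -0.91, -1.07 and -1.04. For Col1a1, tumor against gland was -2.99 in knockout by the brighter probe set and -5.09 by the other.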
